A study of Mus musculus with 104 samples.

Results

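The dorsal tegmental nucleus (Tg) was compared with the periaqueductal gray (PAG), 2 pieces of brainstem that lie next to each other on either side of the border between hindbrain and midbrain. The comparison used the 4 arrays titled as replicates 1 and 2 of Tg and of PAG, in a series that covered 52 regions of the brain, spinal cord, eye, pituitary and pineal gland with 2 arrays each. All mice were male Balb/c without a stated genotype change or treatment, 7 to 8 weeks old. They had been kept under 12 h of light and 12 h of dark, and the labels say that sampling took place in that cycle or in constant darkness without saying which applied to a given sample. Regions were punched on both sides from frozen slices 0.5 mm thick, and RNA from samples taken every 4 h over 1 day was pooled for each region, so no time of day can be read from an array. Each punch is bulk tissue, in which fewer cells of a type and less RNA per cell cannot be told apart. Nothing in the labels says that the 2 arrays of a region came from separate mice, so p-values measure only the spread between arrays, which may be technical.

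The PAG surrounds the aqueduct of the midbrain and is known for its part in pain control, defensive behaviour, vocalisation and autonomic responses. The dorsal tegmental nucleus lies in the pons just behind it, is rich in inhibitory neurons and is known as a part of the head direction circuit that runs to the mammillary body. Serotonin neurons of the dorsal raphe lie along the midline beside both, and the noradrenaline neurons of the locus coeruleus and the cholinergic neurons of the laterodorsal tegmental nucleus lie close to Tg. Neuropeptides, which are cut from larger precursor proteins and act on receptors coupled to G proteins, mark many small groups of neurons in this part of the brainstem.

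Neuropeptide precursor genes made up 7 of the genes that differed, and the promoters of 5 of them are shown here because neuropeptides include the genes with the largest difference in each direction, Crh and Cartpt. The sequences are those of RefSeq on GRCm38.p6, each with 250 bases before and 50 bases after the annotated start of the gene, read 5′ to 3′ along the gene's own strand. Capitals mark TGACG or its reverse complement CGTCA, the short core of the cAMP response element bound by CREB proteins, and a full element TGACGTCA holds both, overlapping. Nmb lies at chr7:80905013-80905312 on the minus strand, Cck at chr9:121495645-121495944 on the minus strand, Vip at chr10:5638968-5639267 on the plus strand, Ucn at chr5:31138846-31139145 on the minus strand and Cartpt at chr13:99900634-99900933 on the minus strand. The promoters of Crh and Calcb are not shown.
Nmb: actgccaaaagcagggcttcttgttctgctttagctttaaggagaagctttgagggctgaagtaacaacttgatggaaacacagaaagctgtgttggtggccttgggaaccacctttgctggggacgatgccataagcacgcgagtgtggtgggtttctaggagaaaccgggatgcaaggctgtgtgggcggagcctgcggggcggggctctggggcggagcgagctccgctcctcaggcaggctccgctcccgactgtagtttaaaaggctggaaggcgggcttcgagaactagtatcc
Cck: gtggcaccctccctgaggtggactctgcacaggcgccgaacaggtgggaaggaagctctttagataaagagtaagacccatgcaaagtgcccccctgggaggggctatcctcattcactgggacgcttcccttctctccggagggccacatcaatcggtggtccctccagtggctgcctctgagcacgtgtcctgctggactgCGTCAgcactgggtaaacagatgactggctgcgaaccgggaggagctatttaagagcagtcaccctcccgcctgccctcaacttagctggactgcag
Vip: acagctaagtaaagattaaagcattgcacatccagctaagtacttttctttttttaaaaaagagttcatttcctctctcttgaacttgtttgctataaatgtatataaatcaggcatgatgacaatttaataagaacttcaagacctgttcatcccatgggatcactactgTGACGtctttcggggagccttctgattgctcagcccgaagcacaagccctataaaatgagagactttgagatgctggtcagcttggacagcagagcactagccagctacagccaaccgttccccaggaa
Ucn: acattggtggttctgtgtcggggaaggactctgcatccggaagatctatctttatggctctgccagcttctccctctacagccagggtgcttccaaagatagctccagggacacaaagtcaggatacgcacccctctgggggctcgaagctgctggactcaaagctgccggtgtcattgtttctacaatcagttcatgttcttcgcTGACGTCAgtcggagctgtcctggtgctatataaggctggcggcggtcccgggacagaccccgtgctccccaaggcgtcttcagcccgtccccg
Cartpt: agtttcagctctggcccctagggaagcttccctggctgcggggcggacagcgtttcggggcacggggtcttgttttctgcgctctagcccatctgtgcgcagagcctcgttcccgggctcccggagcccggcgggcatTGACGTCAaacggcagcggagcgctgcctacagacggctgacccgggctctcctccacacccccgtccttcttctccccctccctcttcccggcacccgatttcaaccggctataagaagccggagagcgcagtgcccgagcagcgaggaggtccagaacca
Full elements were found in Ucn, starting 44 bases before the gene's start, and in Cartpt, starting 112 bases before it. Vip held the short core 79 bases before the start and Cck 1 on the opposite strand 47 bases before the start, while Nmb held neither in this window. Of 32851 promoters of the same length, 588 (1.79%) held the full element and 6837 (20.8%) the short core on either strand. These matches describe the letters of the windows and were not tested for binding.

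The 2 regions were alike in most genes. Across 18193 genes, 58 (0.319%) were called, which means an adjusted p under 0.05 over all genes and a difference of at least 2-fold. Of these, 22 (0.121%) were higher in Tg and 36 (0.198%) were higher in PAG. At an unadjusted p under 0.05 there were 3722 genes (20.5%). All differences below are Tg minus PAG on the log2 scale, with the standard error (SE) of the fit, in which 1 log2 unit is 2-fold. At any fold, 740 genes (4.07%) were higher in Tg and 448 (2.46%) higher in PAG at an adjusted p under 0.05, and the median difference of all genes was 0.04. The arrays of the 2 regions did not overlap for 8938 genes (49.1%), so that a lack of overlap alone sets no gene apart. Each of the 2 regions had the other as its most similar region among the 52, with a correlation across genes of r = 0.992 between region means; Tg was next most similar to the medial vestibular nucleus and PAG to the lateral hypothalamus. The count higher in Tg depended on single arrays, and was 42 without Tg replicate 1 and 11 without Tg replicate 2.

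**Figure D1:**
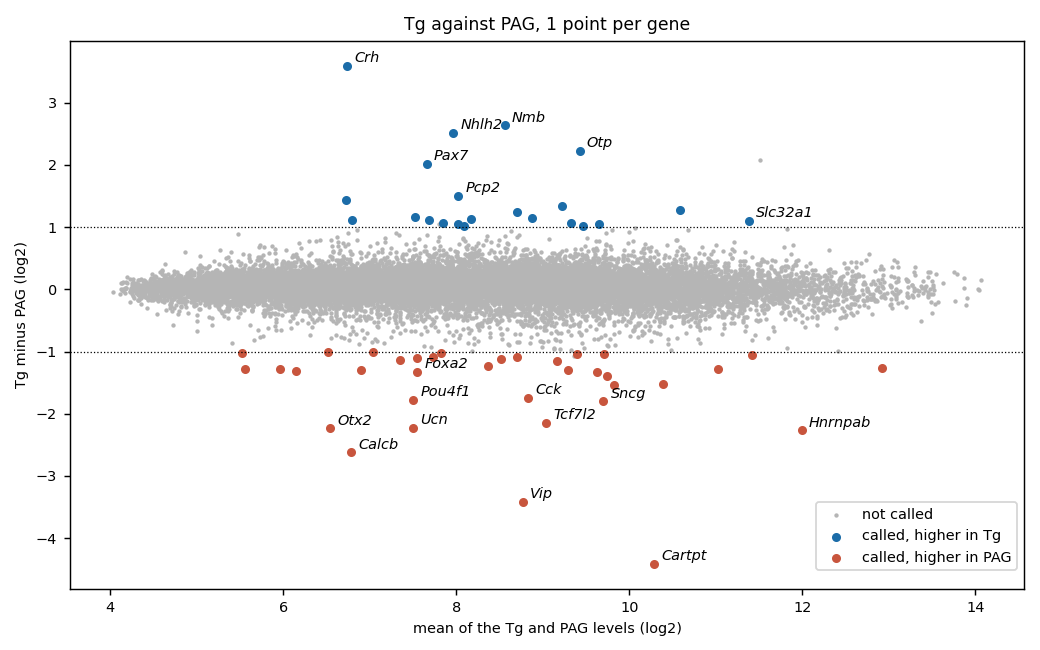
Difference between Tg and PAG (Tg minus PAG, log2, vertical axis) against the mean of the 2 region levels (log2, horizontal axis), 1 point per gene for 18193 genes. The 22 called genes higher in Tg and 36 higher in PAG lie beyond the dotted lines at 2-fold, with Crh at the top and Cartpt at the bottom; the single grey point far above the upper line is Rian.

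The paired arrays were close, with r = 0.995 between the 2 Tg arrays and r = 0.996 between the 2 PAG arrays across genes, and a median SD between arrays of 0.093 and 0.074. Deposited values ran from 3.88 to 15.15 over all arrays with array medians between 7.33 and 7.46, and they carry no detection call, so a low value is given as a level and not as absence. The 2 groups differed in control probe sets that are not mouse genes. The mean level of the hybridisation controls was 9.64 and 9.92 in Tg against 10.97 and 11.00 in PAG, which put Tg among 21 regions with low controls and PAG among 30 with high controls. The probe sets for 18S ribosomal RNA had mean levels of 7.44 and 7.19 in Tg and 8.78 and 9.16 in PAG, while the 3′ to 5′ difference of actin was 1.14 and 1.39 in Tg and 1.03 and 1.07 in PAG. Region and control level cannot be told apart with these 4 arrays. For 3 nearby pairs of regions that also differ in control level (superior minus inferior colliculus, pontine minus medial vestibular nucleus, ventral tegmental area minus substantia nigra), 3 of the 22 genes higher in Tg and 11 of the 36 higher in PAG had the same sign in all 3 pairs, against 23.1% and 15.5% of all genes. These were Arhgap33, Lemd1 and Prdm8 on the Tg side, and Atp8a1, Barhl2, Lgals1, Lncpint, Otub1, Pfdn2, Rbfox2, Sesn3, Stk25, Tcf7l2 and Tsks on the PAG side.

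Neuropeptide precursors held the highest and the lowest difference of the whole comparison. Of 31 measured precursor genes, 2 were called higher in Tg and 5 higher in PAG, which is 22.6% of the list beside 0.319% of all genes, and 24 were not called. The median of the list was -0.02, beside 0.04 for all genes.

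Crh encodes corticotropin-releasing hormone, which in this part of the brainstem is known from Barrington's nucleus and its surroundings. Its level was 7.84 and 9.24 in the Tg arrays and 5.04 and 4.84 in the PAG arrays. Both Tg arrays lay above both PAG arrays, with a wide gap between the 2 Tg arrays. The difference was 3.60 ± 0.35, or 12.1-fold (adjusted p = 1.22e-11), and it was 4.30 without Tg replicate 1 and 2.90 without Tg replicate 2. Tg ranked 7 of 52 regions for Crh, with the medial vestibular nucleus first at 10.40, and PAG ranked 30.

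Nmb encodes neuromedin B, a peptide of the bombesin family. The Tg arrays had levels of 9.76 and 9.99 and the PAG arrays 7.31 and 7.17, so that the groups stood well apart, by 2.64 ± 0.20 or 6.21-fold (adjusted p = 8.20e-16). Only the posterior and anterior olfactory bulb had higher region means than Tg, which ranked 3, while PAG ranked 37.

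Cartpt, the precursor of cocaine- and amphetamine-regulated transcript peptides, was the called gene with the largest difference in either direction. Its level was 7.98 and 8.18 in Tg and 12.21 and 12.77 in PAG. The difference was -4.41 ± 0.21, or 21.3-fold higher in PAG (adjusted p = 4.28e-25). PAG ranked 2 of 52 for this gene at a mean of 12.49, next to the arcuate nucleus at 12.61, and Tg ranked 30.

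Vip, which encodes vasoactive intestinal peptide, had levels of 6.97 and 7.15 in Tg and 11.37 and 9.58 in PAG. The 2 PAG arrays differed from each other more than the 2 Tg arrays did, and both lay above Tg. The difference was -3.42 ± 0.32 (adjusted p = 2.73e-12), and it was -2.52 without PAG replicate 1 and -4.31 without PAG replicate 2. PAG ranked 2 for Vip, below the suprachiasmatic nucleus at 13.73, the region best known for this peptide.

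Calcb encodes the second form of calcitonin gene-related peptide. It was at 5.35 and 5.59 in Tg and 7.88 and 8.31 in PAG, a difference of -2.62 ± 0.14 (adjusted p = 6.77e-23), and PAG again ranked 2, here after the anterior spinal cord. Calca, which encodes the other form, was not analysed here. Ucn encodes urocortin, a relative of Crh that is made in the Edinger-Westphal nucleus beneath the aqueduct. Its level was 6.30 and 6.47 in Tg and 8.18 and 9.04 in PAG, a difference of -2.23 ± 0.14 (adjusted p = 2.12e-19). Both PAG arrays lay above every array of the other 51 regions for Ucn, the single gene for which this held in PAG. Cck, the precursor of cholecystokinin, was at 7.50 and 8.42 in Tg and 9.50 and 9.91 in PAG, a difference of -1.74 ± 0.30 (adjusted p = 7.98e-05). Set against neighbouring regions of low and high control level, the Cck difference was -0.54 and its call was lost (adjusted p = 0.526). It ranked near the middle of the regions in PAG, at 22, and at 39 in Tg.

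Among the precursors that were not called, 3 were higher in PAG at an adjusted p under 0.05 but under 2-fold. Adcyap1, which encodes PACAP, differed by -0.95 ± 0.15 (adjusted p = 1.22e-05), Grp, which encodes gastrin-releasing peptide, by -0.91 ± 0.24 (adjusted p = 0.0135) and Trh, which encodes thyrotropin-releasing hormone, by -0.60 ± 0.17 (adjusted p = 0.0187). A second, dimmer probe set of Adcyap1 gave -0.15. Trh was also negative in all 3 nearby pairs that differ in control level (-0.14, -0.06 and -0.27). The part of control level in its difference was not tested. Tac1, the substance P precursor, had levels of 10.93 and 11.50 in Tg and 11.91 and 12.08 in PAG, and Penk, the enkephalin precursor, 10.82 and 11.05 in Tg and 10.21 and 10.40 in PAG. For neither did the difference pass the test, with values of -0.78 (adjusted p = 0.136) and 0.63 (adjusted p = 0.149). Gal, Nts and Sst differed by 0.25, 0.06 and -0.01, with adjusted p-values of 0.36 to 0.99.

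**Figure D2:**
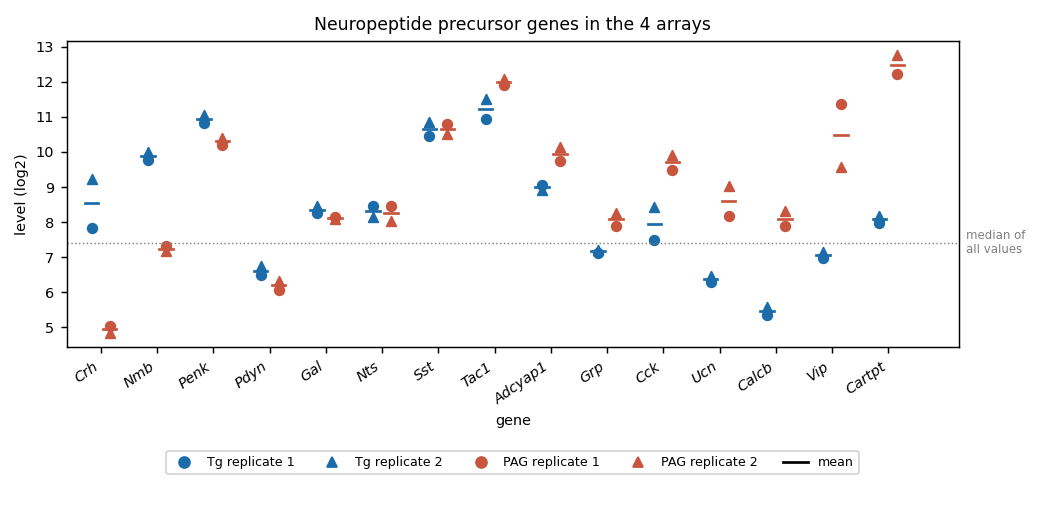
Levels (log2) of 15 neuropeptide precursor genes in the 4 arrays, with circles for replicate 1, triangles for replicate 2, bars for the mean of a region and a dotted line at the median of all values, 7.39. Crh and Nmb stand higher in Tg, Cck, Ucn, Calcb, Vip and Cartpt stand higher in PAG, and Nts and Sst overlap.

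Receptors for these peptides did not reach a call. Of 35 measured genes for receptors and binding proteins, 0 were called by limma's test, and 12 had an unadjusted p under 0.05. Crhbp, which encodes a protein that binds and buffers Crh, had levels of 7.80 and 8.14 in Tg and 7.10 and 7.21 in PAG, a difference of 0.81 ± 0.20 (adjusted p = 0.00703) that stayed under 2-fold. The receptor gene Crhr1 differed by 0.43 ± 0.13 (adjusted p = 0.0262), and Trhr, the receptor for thyrotropin-releasing hormone, by -0.78 ± 0.25 (adjusted p = 0.0478). The receptors for neuromedin B and vasoactive intestinal peptide did not pass the test, with differences of 0.23 for Nmbr, 0.14 for Vipr1 and -0.21 for Vipr2.

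Transcription factors that set regional identity differed in both directions. Of 33 measured factors of the midbrain and tegmentum, 2 were called higher in Tg (Pax7 and Meis2) and 4 higher in PAG (Otx2, Pou4f1, Tcf7l2 and Barhl2), which is 18.2% of the list. Barhl2 was low in both regions, at 5.26 and 4.76 in Tg and 5.82 and 6.24 in PAG, below the median of all values. Of 26 factors listed for the isthmus and hindbrain, Pax6 was called higher in Tg and Lhx2 higher in PAG, 7.69% of the list. Lhx2 itself was higher in the superior and inferior colliculi (8.63 and 8.25) than in the pontine and medial vestibular nuclei (5.54 and 5.56). Its levels of 5.52 and 5.46 in Tg and 6.75 and 6.85 in PAG lay below the median of all values, 7.39. Of all genes, 0.319% were called. Both lists had medians near 0, at 0.11 and 0.03.

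Pax7, a paired box factor known from the dorsal midbrain, was at 8.81 and 8.53 in Tg and at 6.73 and 6.58 in PAG. The difference of 2.02 ± 0.12 (adjusted p = 2.45e-20) was shared by its second probe set, at 1.54. Tg ranked 3 of 52 for Pax7, after the superior colliculus and the pituitary, and PAG ranked 11. Otx2, a homeobox factor of the forebrain and midbrain whose limit marks the border to the hindbrain in the embryo, was at 5.36 and 5.48 in Tg and at 7.68 and 7.63 in PAG. Its difference was -2.24 ± 0.21 (adjusted p = 7.04e-12), and both Tg arrays lay in the lower part of the value range. Otx2 is also made by the choroid plexus, whose other 8 measured markers differed by -0.39 to 0.23 with 0 called, Ttr among them at 8.83 and 8.96 in Tg and 8.85 in both PAG arrays. Whether choroid plexus tissue in the punch had a part in the Otx2 difference was not tested.

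Pou4f1, a factor of sensory, habenular and midbrain neurons, had levels of 6.53 and 6.70 in Tg and 8.11 and 8.67 in PAG. The difference was -1.77 ± 0.16 (adjusted p = 7.14e-13), with -1.12 at its other probe set, and PAG ranked 3 after the habenula and the superior colliculus. Tcf7l2, a partner of beta-catenin in Wnt signalling that is prominent in thalamus and midbrain, was at 7.72 and 8.21 in Tg and 9.96 and 10.27 in PAG, a difference of -2.15 ± 0.24 (adjusted p = 1.54e-09). All 4 of its probe sets were lower in Tg, by values between -2.43 and -0.76. Against those neighbouring regions its difference was -0.92, under 2-fold. The forkhead factors Foxa2 and Foxa1, which specify floor plate and dopamine neurons, were also higher in PAG. Foxa2 was at 6.94 and 6.82 in Tg and 8.21 in both PAG arrays (-1.33 ± 0.14, adjusted p = 9.65e-11), with PAG second to the ventral tegmental area, and Foxa1 at 6.08 and 5.95 against 7.11 and 6.93 (adjusted p = 0.00161).

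Nhlh2 and Otp, a helix-loop-helix and a homeobox factor best known from hypothalamic neurons, were both higher in Tg. Nhlh2 was at 9.16 and 9.28 in Tg and 6.61 and 6.79 in PAG, a difference of 2.52 ± 0.21 (adjusted p = 8.25e-14), and only the habenula ranked above Tg. Otp was at 10.69 and 10.39 in Tg and 8.41 and 8.21 in PAG, a difference of 2.22 ± 0.17 (adjusted p = 2.04e-15); a second, dimmer probe set gave 0.22. Tg ranked 6 for Otp after 5 hypothalamic pieces, the median eminence first.

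Smaller differences ran through other regional factors. Tal1 and Zfpm1, which take part in the choice of an inhibitory fate in the brainstem, differed by 0.56 (adjusted p = 0.00637) and 0.73 (adjusted p = 0.00016), and Tg and PAG ranked 2 and 3 of 52 for Tal1. Gata2 and Gata3, factors of the same pathway, differed by -0.24 and -0.15 and did not pass the test. Lhx9 was lowest of all 52 regions in Tg and ranked 11 in PAG (-0.71 ± 0.13, adjusted p = 0.000232). The Hox genes, which mark the hindbrain and spinal cord behind the isthmus, held 0 called genes of 20 measured and 3 with an unadjusted p under 0.05. Hoxb2 alone passed at any fold, with levels of 7.16 and 7.39 in Tg and 6.90 and 6.69 in PAG (0.48, adjusted p = 0.033). Both of its PAG levels lay below the median of all values, 7.39. Hoxb2 was also positive in all 3 nearby pairs that differ in control level (0.40, 0.16 and 0.36), and so was Zfpm1 (0.37, 0.74 and 0.26). Lhx9 was negative in all 3 pairs (-0.93, -0.00058 and -0.23). The part of control level in these values was not tested.

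Serotonin genes did not separate Tg from PAG and were high in both. Tph2, which encodes the enzyme that starts serotonin synthesis in neurons, was at 10.83 and 10.40 in Tg and 11.38 and 10.11 in PAG. The groups overlapped, and the difference was -0.12 ± 0.16 (adjusted p = 0.726). PAG ranked 1 and Tg 2 of 52 regions for Tph2, with the pontine nucleus next at 5.89, and they held the same 2 ranks for the serotonin transporter gene Slc6a4, at 11.13 and 10.74 in Tg and 11.89 and 10.49 in PAG. Of the 10 measured genes of the serotonin list, limma's test called 0 and 3 had an unadjusted p under 0.05; Maob, which encodes a monoamine-degrading enzyme, was the single one to pass at any fold (-0.58, adjusted p = 0.0194). In PAG, replicate 1 lay above replicate 2 for Tph2, Slc6a4, Ddc and Slc18a2 by more than the 2 Tg arrays differed, and the mean level of the 10 genes was 9.93 and 9.01 in the PAG arrays against 9.35 and 9.17 in Tg. Ddc, which other monoamine cells also make, ranked 4 in PAG and 5 in Tg, with the pineal gland highest at 13.27. Of 13 serotonin receptor genes, 0 were called and 1 had an unadjusted p under 0.05, and their differences ran from -0.25 to 0.23.

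Of 8 noradrenaline genes, 0 were called, 4 had an unadjusted p under 0.05, and at any fold 2 (Dbh and Phox2a) were higher in Tg and 2 (Th and Tfap2b) higher in PAG. Dbh encodes the enzyme that makes noradrenaline from dopamine. It was at 8.78 and 9.20 in Tg and 8.20 and 8.06 in PAG, a difference of 0.86 ± 0.10 (adjusted p = 1.57e-08), and Tg ranked 1 of 52 regions while PAG ranked 52. Its 2 other probe sets gave 1.31 and 0.46, each with Tg at rank 1 and with PAG at 42 and 12. The transporter gene Slc6a2 differed by -0.21 at its brightest probe set (adjusted p = 0.283), whereas another of its 4 probe sets had levels of 8.31 and 9.89 in Tg and 6.49 and 6.22 in PAG. That probe set differed by 2.75 ± 0.21 (adjusted p = 4.23e-15 over all probe sets), and Tg ranked 1 there too. Phox2a, a factor needed for noradrenaline neurons, was at 5.66 and 6.10 in Tg, its highest region, and 5.41 and 5.25 in PAG (0.55, adjusted p = 0.000999). These levels lay below the median of all values, 7.39. The probe set of Slc6a2 was singled out after its values were seen.

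Dopamine genes that passed the test were on the PAG side. Th, the enzyme that starts dopamine and noradrenaline synthesis, was at 8.33 and 9.00 in Tg and 9.69 and 9.52 in PAG, a difference of -0.94 ± 0.23 (adjusted p = 0.00572). It was also negative in all 3 nearby pairs that differ in control level (-0.29, -0.12 and -0.34), as were 15.5% of all genes. The part of control level in the Th difference was not tested. The dopamine transporter gene Slc6a3 differed by -0.48 (adjusted p = 0.0133). With Foxa1 and Foxa2, 2 of 11 genes of the dopamine list were called (18.2%, beside 0.319% of all genes), both higher in PAG. Both PAG levels of Foxa1 lay below the median of all values, 7.39. The substantia nigra and ventral tegmental area ranked first for Th, at 12.72 and 12.38.

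Cholinergic genes split, with 1 of 8 called (12.5%, beside 0.319% of all genes). Slc5a7, which encodes the choline transporter that limits acetylcholine synthesis, was called higher in PAG, at 6.67 and 6.90 in Tg and 7.80 and 8.02 in PAG (-1.13 ± 0.18, adjusted p = 1.06e-05). Slc18a3, the vesicular transporter, was at 7.75 and 7.62 in Tg and 8.45 and 8.90 in PAG (-0.99 ± 0.20, adjusted p = 0.000739), just under 2-fold. Chat, which encodes the synthetic enzyme, overlapped at 7.76 and 7.50 against 7.77 and 7.44. Nos1, the neuronal nitric oxide synthase of the laterodorsal tegmental neurons and of many other cells, was higher in Tg at 11.08 and 10.82 against 10.24 and 10.07 (0.79 ± 0.11, adjusted p = 1.92e-06), and its other 3 probe sets gave 0.95, 1.17 and -0.24. Nos1 was also positive in all 3 nearby pairs that differ in control level (0.26, 0.99 and 0.91), as were 23.1% of all genes. The part of control level in its difference was not tested.

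**Figure D3:**
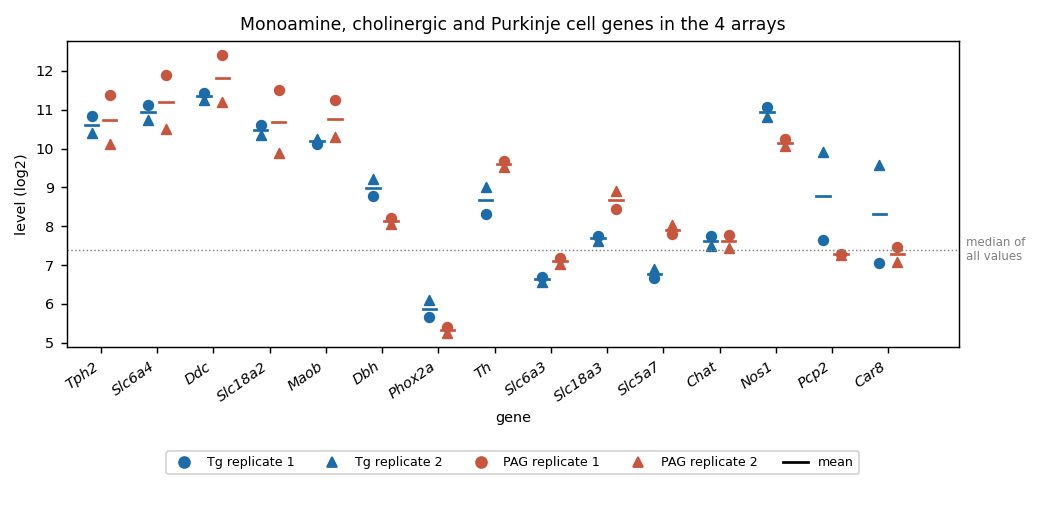
Levels (log2) of monoamine, cholinergic and Purkinje cell genes in the 4 arrays, with circles for replicate 1, triangles for replicate 2, bars for the mean of a region and a dotted line at the median of all values, 7.39. The serotonin genes Tph2, Slc6a4 and Ddc overlap between regions with replicate 1 of PAG on top, Dbh stands higher in Tg, Th and Slc5a7 stand higher in PAG, and Pcp2 and Car8 are high in replicate 2 of Tg alone.

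Of 5 genes of GABA synthesis, release and uptake, 1 was called higher in Tg (20%, beside 0.319% of all genes) and 4 were not called. This was Slc32a1, which encodes the transporter that loads GABA and glycine into vesicles. Its level was 11.88 and 11.97 in Tg and 10.76 and 10.90 in PAG, and both Tg arrays lay above every array of the other 51 regions. The difference was 1.10 ± 0.27 (adjusted p = 0.00753). Its 3 other probe sets, which are dim, gave -0.26 to 0.09, and the call was lost without Tg replicate 2 (1.05, adjusted p = 0.0828) and without PAG replicate 1 (1.03, adjusted p = 0.0958). The GABA-synthesising enzymes Gad1 and Gad2 were at 12.66 and 12.59 and at 12.21 and 11.95 in Tg, against 11.95 and 12.05 and 11.70 and 11.69 in PAG. Neither passed the test, with differences of 0.63 (adjusted p = 0.197) and 0.38 (adjusted p = 0.346), although the second probe set of Gad1 gave 0.97 with an adjusted p of 0.0069.

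Glycine genes moved in both directions. Slc6a5, the transporter of glycine neurons, was at 7.61 and 8.55 in Tg and 7.47 and 7.34 in PAG (0.67, adjusted p = 0.00127), while the receptor subunit gene Glra3 was called higher in PAG (-1.11 ± 0.28, adjusted p = 0.00765; -0.38 at its other probe set). The vesicular glutamate transporter gene Slc17a6, which marks excitatory neurons of the brainstem, was at 11.23 and 11.49 in Tg and 11.77 and 12.15 in PAG, and the difference of -0.60 did not pass the test (adjusted p = 0.128).

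Acetylcholine and glutamate receptor genes held no call by limma. Among 12 acetylcholine receptor genes 0 were called and 4 had an unadjusted p under 0.05. Chrna2, a nicotinic subunit, was at 7.19 in both Tg arrays and at 6.32 and 6.27 in PAG (0.90 ± 0.12, adjusted p = 3.74e-07), and both Tg arrays lay above all arrays of the other 51 regions. Its levels in both regions were below the median of all values, 7.39. Chrna2 was also positive in all 3 nearby pairs that differ in control level (0.01, 0.09 and 0.03). The part of control level in its difference was not tested. Chrna4 and Chrna5 differed by 0.56 (adjusted p = 0.0071) and 0.57 (adjusted p = 3.89e-05). The other probe sets of Chrna4 gave 0.13 and -0.23, and that of Chrna5 gave 0.89. Chrna5 also lay below that median, at a mean of 5.82 in Tg and 5.25 in PAG. Among 21 glutamate receptor genes 0 were called and 12 had an unadjusted p under 0.05, and the 4 that passed at any fold were all higher in PAG: Gria3 by -0.98 (adjusted p = 3.86e-06), Gria2 by -0.62, Grin2b by -0.72 and Grm3 by -0.72. Grm3 alone of these 4 was also negative in all 3 nearby pairs that differ in control level (-0.70, -0.23 and -0.36). The median of the glutamate receptor list was -0.18, beside 0.04 for all genes.

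Of 29 potassium and HCN channel genes 0 were called and 5 had an unadjusted p under 0.05; Kcnh2, which encodes the ERG potassium channel, was at 10.37 and 10.73 in Tg and 9.50 and 9.64 in PAG (0.98 ± 0.10, adjusted p = 2.72e-10), and Tg had the highest mean of the 52 regions. Genes of fast-firing neurons, which include parvalbumin and the Kv3 channels, held 0 called genes of 13 and 2 with an unadjusted p under 0.05. Pvalb, a marker of dorsal tegmental neurons, was at 11.09 and 11.69 in Tg and 10.41 and 11.15 in PAG, so the groups overlapped (0.61, adjusted p = 0.0525). Nefm, a neurofilament subunit of large neurons, differed by -0.99 ± 0.18 (adjusted p = 0.000149), just under 2-fold. Of 10 calcium-binding protein genes, Necab1 alone was called (10%, beside 0.319% of all genes). Its level was 7.45 and 7.17 in Tg and 8.21 and 8.48 in PAG.

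None of 12 oligodendrocyte, 7 precursor, 12 astrocyte, 12 microglia, 12 endothelium and pericyte, 10 ependyma, 10 meninges and 2 erythroid genes was called by limma, and in that order 3, 2, 6, 2, 2, 5, 1 and 1 had an unadjusted p under 0.05. All 6 of the astrocyte genes were on the Tg side, beside 20.5% of all genes with such a p on either side, and Gfap, the astrocyte filament gene, differed by 0.64 (adjusted p = 0.0677), with 0.88 and 0.76 at its 2 other probe sets. The 12 oligodendrocyte genes lay between 0.02 and 0.69 with a median of 0.28, of which Mag (0.69, adjusted p = 0.000886) and Gjb1 (0.55, adjusted p = 0.017) passed at any fold. Ependyma genes had a median of -0.21, and Enkur (-0.72, adjusted p = 0.0256) and Ccdc153 (-0.58, adjusted p = 0.0441) passed at any fold on the PAG side, where replicate 1 carried the higher levels at 7.66 against 6.59 for Enkur. Of the 13 immediate early genes, Egr1 was higher in PAG at any fold (-0.81, adjusted p = 0.00233), 0 were called and 2 had an unadjusted p under 0.05.

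Pcp2, Car8 and Ppp1r17, genes of the Purkinje cell list, stood highest in 1 array, Tg replicate 2. Pcp2, a protein found in Purkinje and retinal bipolar cells, was called higher in Tg, but its level was 7.63 and 9.92 in the 2 Tg arrays against 7.30 and 7.25 in PAG. Without Tg replicate 2 the difference was 0.36 (adjusted p = 0.781) and the call was lost, as it was without PAG replicate 1 (1.52, adjusted p = 0.12) and without PAG replicate 2 (1.48, adjusted p = 0.118). The other 2 probe sets of Pcp2 gave 0.85 and 0.30. Car8 and Ppp1r17 were at 7.06 and 9.58 and at 5.44 and 6.79 in the Tg arrays against 7.48 and 7.07 and 5.57 and 5.29 in PAG, and their differences of 1.05 (adjusted p = 0.184) and 0.68 (adjusted p = 0.186) were not called. Of the 8 measured Purkinje genes, 1 was called (12.5%, beside 0.319% of all genes). An unadjusted p under 0.05 was reached by 7, 5 of them higher in Tg and 2 higher in PAG. The latter were Calb1, a calcium-binding protein gene, at 9.53 and 10.48 in Tg and 11.00 and 10.77 in PAG (-0.89, adjusted p = 0.11), and the glutamate transporter gene Slc1a6 (-0.36, adjusted p = 0.22). Over the list the mean level was 8.56 in Tg replicate 1, 9.65 in Tg replicate 2 and 8.62 and 8.72 in PAG; the marker list of granule cells ran 7.45, 7.91, 7.26 and 7.41 in the same order. The granule cell genes Gabra6 and Cbln3 differed by 0.63 and 0.42 and did not pass the test. Barhl1 was higher in PAG at any fold (-0.40, adjusted p = 0.0286), with -0.14 at its other probe set. Pax6, which granule cells also make, was at 7.86 and 8.34 in Tg and 6.86 and 7.02 in PAG (1.16 ± 0.20, adjusted p = 5.19e-05). Without Tg replicate 2 the difference of Pax6 was 0.93, under 2-fold. The 5 probe sets of Pax6 ran from -0.10 to 1.16, and with their mean of 0.40 the call was also lost. Whether cerebellar tissue in the punch had a part in these genes was not tested.

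The remaining genes with large differences included several for which probe sets disagreed. Hnrnpab, an RNA-binding protein gene, was at 10.77 and 10.94 in Tg and 13.33 and 12.92 in PAG at the probe set chosen for brightness (-2.27 ± 0.33, adjusted p = 2.12e-06), while its 6 other probe sets gave -0.42 to 0.08. The nuclear long noncoding RNA Malat1 was lower in Tg at the chosen probe set, and its 7 probe sets ran from -2.99 to 0.09. Sncg, the gamma-synuclein gene, was at 8.57 and 9.03 in Tg and 10.58 and 10.62 in PAG (-1.80 ± 0.22, adjusted p = 2.95e-08). Set against neighbouring regions of low and high control level, the Sncg difference was -0.32 and its call was lost. Dlk1, a membrane-bound regulator of Notch signalling, and Spock1, a testican proteoglycan, were lower in Tg by values of -1.39 ± 0.27 and -1.54 ± 0.28, with both probe sets on the same side.

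On the Tg side, Sema3a, an axon guidance molecule, differed by 1.24 ± 0.18 (adjusted p = 1.37e-06), C1ql3, a secreted synaptic organiser, by 1.34 ± 0.39 (adjusted p = 0.0239) and Lamp5, a membrane protein of inhibitory neurons, by 1.27 ± 0.26 (adjusted p = 0.00124). The other 2 probe sets gave 1.03 and 0.23 for Sema3a and 0.49 and 0.31 for C1ql3, and with the mean of probe sets neither gene was called (0.83 and 0.71). Without Tg replicate 2 the calls of C1ql3 (0.88, adjusted p = 0.365) and Lamp5 (0.94, adjusted p = 0.109) were lost, and that of C1ql3 also without PAG replicate 1 (1.19, adjusted p = 0.195) or PAG replicate 2 (1.49, adjusted p = 0.0694). Klk6, a protease of oligodendrocytes, and Il33, an alarmin of oligodendrocytes and astrocytes, were called at 1.06 ± 0.15 and 1.07 ± 0.26. These and Malat1 fall outside the rule for named genes and were chosen after their values were seen. Beyond the called genes, 3 passed 2-fold without passing the test. Rian, a maternally expressed noncoding RNA, was at 12.78 and 12.32 in Tg and 10.53 and 10.41 in PAG, a difference of 2.08 ± 0.83 (adjusted p = 0.126), with 4 probe sets from -0.88 to 2.08. Car8 and Ttll1 were the other genes of this kind.

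To ask which differences belong to this pair and which recur between hindbrain and midbrain, the mean of the pontine and medial vestibular nuclei was set against the mean of the superior and inferior colliculi, which share no array with Tg and PAG. That difference called 250 genes (1.37%). Of the 58 genes called between Tg and PAG, 17 were called there in the same direction, 7 in the opposite direction and 34 not at all. The difference between the 2 differences was itself tested and called 323 genes (1.78%), 40 of them among the 58.

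Crh and Otx2 were among the genes with the same direction in both. Crh had a difference of 3.06 between the other regions beside 3.60 between Tg and PAG, and the difference of 0.53 between these was not called. The medial vestibular nucleus alone carried the 3.06, with a mean level of 10.40 beside 5.19 in the pontine nucleus and 4.36 and 5.10 in the superior and inferior colliculi. Otx2 had a difference of -3.54 there beside -2.24 here, and Pou4f1 of -1.25 beside -1.77. For Otx2 the superior colliculus stood out at 10.09, beside 7.71 in the inferior colliculus. Cck and Glra3 also kept their direction, at -2.66 and -2.11.

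Pax7 turned around: it was higher in Tg than in PAG by 2.02 but had a difference of -1.65 in the other regions, where the superior colliculus is highest, so that the differences stood 3.67 apart. Npnt, an extracellular matrix protein gene, and Sel1l3 did likewise, at 1.13 against -2.42 and 1.15 against -1.17. Both Tg values come from 1 probe set: the 5 of Npnt ran from -0.15 to 1.13 and the other of Sel1l3 had a mean level of 6.26 in both regions, and averaged over probe sets the differences were 0.25 and 0.57 and the calls were lost. Between Tg and PAG, both fell under 2-fold without Tg replicate 2 (0.97 for Npnt, 0.98 for Sel1l3), and Npnt lost its call without PAG replicate 1 (1.04, adjusted p = 0.113). Calcb and Sncg turned the other way, with -2.62 against 1.23 and -1.80 against 1.75. Mostly 1 region carried each of these: the pontine nucleus for Calcb, at 7.35 beside 5.47 in the medial vestibular nucleus and 5.37 and 4.98 in the superior and inferior colliculi, and the medial vestibular nucleus for Sncg, at 10.44 beside 7.14 in the pontine nucleus and 7.07 and 7.00 in the colliculi. Cartpt and Ucn had values near 0 in the other regions, at -0.32 and -0.09, beside -4.41 and -2.23 between Tg and PAG, and Nmb and Nhlh2 had 0.40 and 0.56 beside 2.64 and 2.52.

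The difference of differences was also called for inhibitory genes. Gad1 and Gad2 had differences of -1.79 and -1.25 between the other hindbrain and midbrain regions and 0.63 and 0.38 between Tg and PAG, and these stood 2.42 apart for Gad1 (adjusted p = 5.52e-07) and 1.63 apart for Gad2 (adjusted p = 1.26e-05). The 2 hindbrain nuclei were unlike here. The pontine nucleus lay below the medial vestibular nucleus, with differences of -2.72 for Gad1 and -2.18 for Gad2. Slc32a1 was at 10.30 in the pontine and 11.43 in the medial vestibular nucleus. The difference of differences was 1.17 for Slc32a1 (adjusted p = 0.0115) and 1.90 for Tal1 (adjusted p = 2.02e-13). Slc6a5 ran opposite, with 4.06 in the other regions and 0.67 here, a difference of -3.39 (adjusted p = 4.26e-24).

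**Figure D4:**
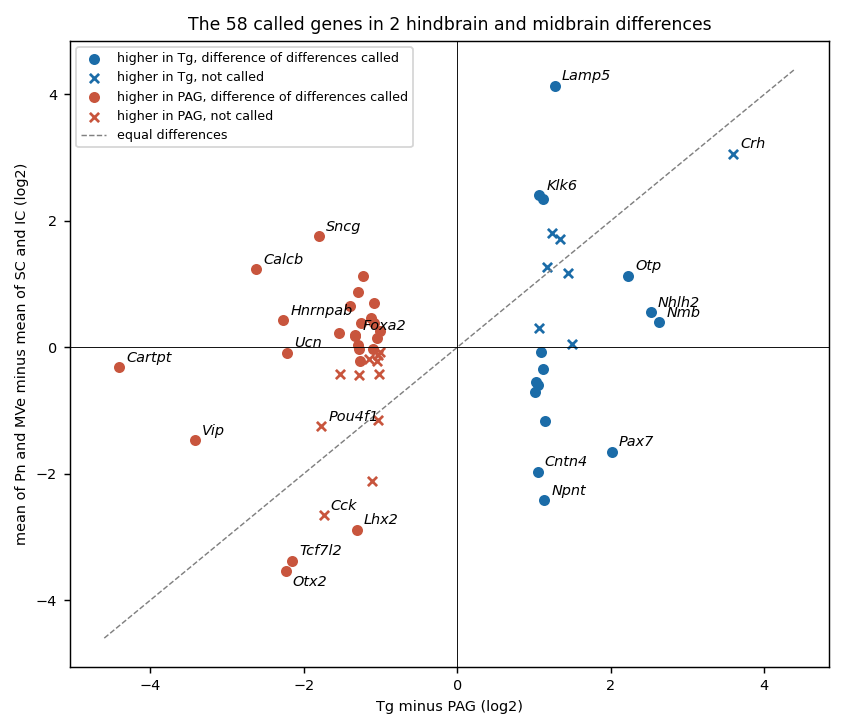
The 58 called genes by their difference between Tg and PAG (log2, horizontal axis) and between the other hindbrain (pontine and medial vestibular nuclei) and midbrain (superior and inferior colliculi) regions (log2, vertical axis); filled points have a called difference of differences and the dashed line marks equal differences. Crh, Cck and Pou4f1 lie in the quadrants of the same direction, Pax7, Npnt, Calcb and Sncg in those of the opposite direction, and Cartpt, Ucn and Nmb close to the horizontal line.

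Across all 52 regions, both Tg arrays lay above every other array for 13 genes and below every other array for 6, and the counts for PAG were 1 and 3. Slc32a1 and Chrna2 were the Tg genes of this kind among the lists, and Ucn the one of PAG. Slc19a3, a thiamine transporter gene, was at 7.89 and 8.08 in Tg and 7.42 and 7.16 in PAG, and Aldh5a1, which encodes an enzyme of GABA breakdown, at 11.75 and 11.70 against 11.43 and 11.51. Both were named after their values were seen. Their differences of 0.70 and 0.26 were under 2-fold.

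**Figure D5:**
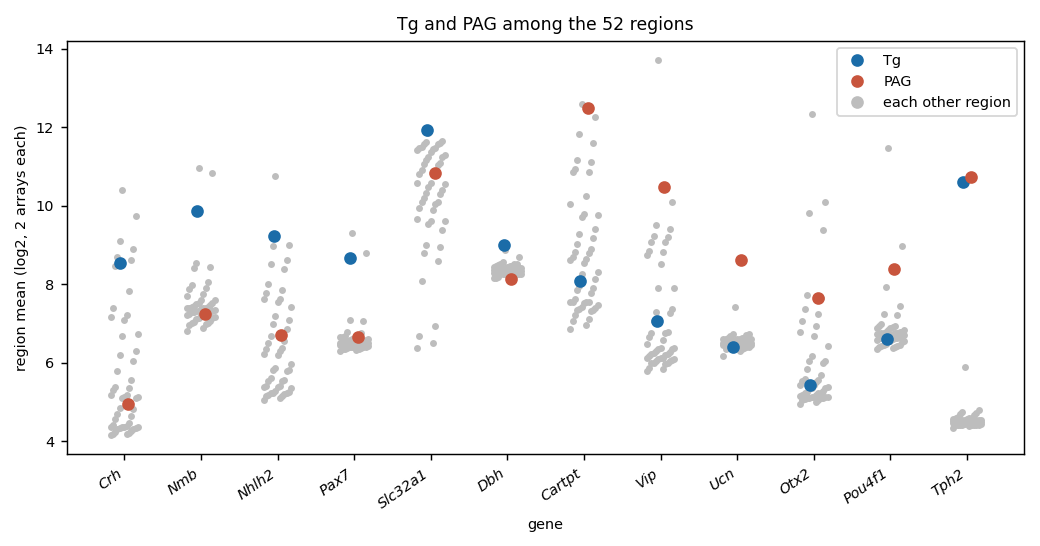
Mean level (log2, 2 arrays each) of 12 genes in each of the 52 regions, with Tg and PAG in colour and the other regions in grey. Tg and PAG lie side by side at the top for Tph2, Tg is highest for Slc32a1 and Dbh, PAG is highest for Ucn and next to highest for Cartpt and Vip.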

How the data were processed

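Expression was measured on Affymetrix mouse arrays from Trizol-extracted total RNA after a one-cycle biotin labelling, per the labels' protocols. The authors deposited log2 values, made with RMA per the submitters' processing notes, which state no version. They were used without further normalization. Of 45101 probe sets, 34945 matched 1 gene symbol, 932 several and 9160 none, and 64 were controls. Probe sets with 1 symbol gave 18193 genes, 9010 of them with several probe sets, and the probe set with the highest mean over all arrays stood for its gene. A dim probe set can understate a difference.

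With limma 3.58.1 (R 4.3.3), a linear model held 1 mean for each of 52 regions, over 2 arrays each, so that all regions shared 1 estimate of the spread between arrays (52 residual and 7.87 prior degrees of freedom, median SE 0.12). Tests were two-sided, and Benjamini-Hochberg adjustment ran over all genes. Calls needed an adjusted p under 0.05 and a 2-fold difference or more. The number of arrays limits the precision. The arrays were not treated as paired by replicate number, and the labels do not say whether arrays of the same number share mice. Over all genes the deviations of Tg and PAG arrays of the same number correlated at r = 0.157. Over 1326 pairs of regions r ran from -0.50 to 0.52, with 327 pairs over 0.1. These values cannot exclude a shared pool or batch.

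Named genes were the top 15 called differences of each direction, bright in the higher group and without overlap of arrays, members of 34 lists (413 of 466 genes measured), and genes highest or lowest in a region. The regions, lists and rules were chosen with earlier results of these data known. On simulated data with 18193 genes, the comparison of Tg and PAG recovered 95 of 100 planted differences of 1.2 (log2) and 100 of 100 of 2, with 0 false calls. At any fold, 8 genes without a planted difference passed. The simulated noise was independent, took its spread from the fit itself and was equal in all regions. It held no difference in control level and no array with a wider spread, so it cannot show how these affect the calls. Alternatives changed the scaling, the filter on dim genes, the use of probe sets, the fold threshold, the variance model, array weights, the arrays in the fit, the replicate block and the arrays or regions left out; 1 alternative that sets the control level against neighbouring regions was chosen after seeing the data.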

Additional observations from a re-analysis of the deposited data

Results flagged for a closer look

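The difference between Tg and PAG was set against that between the other hindbrain regions (pontine and medial vestibular nuclei) and the other midbrain regions (superior and inferior colliculi), and 21 of the 30 genes with the largest differences had a called difference between the 2 (log2, limma). Among genes higher in Tg it was 3.67 for Pax7, 3.55 for Npnt, 2.31 for Sel1l3, 2.24 for Nmb, 1.96 for Nhlh2, 1.46 for Coch, 1.17 for Slc32a1 and 1.09 for Otp, so that each stood further to the hindbrain side here than in the mean of the other regions. Lamp5 was the exception at -2.87. Among genes higher in PAG it was -4.09 for Cartpt, -3.86 for Calcb, -3.56 for Sncg, -2.70 for Hnrnpab, -2.14 for Ucn, -2.05 for Dlk1, -1.95 for Vip, -1.77 for Spock1, -1.52 for Foxa2 and -1.51 for Otub1. Otx2 and Tcf7l2 had positive values, 1.30 and 1.23, since they differed more between the means of the other regions. In each case 1 colliculus stood out. Otx2 was at 10.09 in the superior and 7.71 in the inferior colliculus, beside 7.66 in PAG. Tcf7l2 was at 9.90 in the superior and 11.95 in the inferior colliculus, beside 10.12 in PAG. The control level is high in the inferior colliculus and the medial vestibular nucleus and low in the superior colliculus and the pontine nucleus, and its part in these values was not tested.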

How the results depend on the processing

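Of the 30 named genes with the largest differences, 14 kept their call under all 15 alternatives, among them Crh, Nmb, Nhlh2, Otp, Pax7, Cartpt, Vip, Calcb, Otx2, Ucn, Pou4f1 and Foxa2. The count higher in Tg was 22 as reported, 14 when probe sets of a gene were averaged (13 shared) and 740 with no fold threshold, and between 11 and 42 when 1 array was left out, the extremes without Tg replicate 2 and without Tg replicate 1. Higher in PAG, it was 36 as reported, 448 with no fold threshold and 35 to 50 when 1 array was left out. The genes turned over more than these counts show: 9 of the 22 and 24 of the 36 were shared without Tg replicate 2, 18 and 24 without PAG replicate 2, 15 and 30 without PAG replicate 1, and 21 and 34 without Tg replicate 1. Without a fold threshold 62.3% of the calls were higher in Tg, beside 37.9%. With the replicate number as a block the counts were 22 and 36, the same genes, and the block changed no other call of the named genes. Against neighbouring regions of low and high control level, an alternative chosen after seeing the data, 38 and 66 genes were called, 13 and 20 of them shared, and Npnt reversed to -0.32 (adjusted p = 0.766); Cck (-0.54), Sncg (-0.32), Tcf7l2 (-0.92), Sesn3 (-0.35), Otub1 (-0.58), Prdm8 (0.50), C1ql3 (adjusted p = 0.253), Lamp5 (0.31) and Pax6 (0.97) lost their call. Using the mean of probe sets, Slc32a1 (0.21), Hnrnpab (-0.46), Npnt (0.25), Sel1l3 (0.57), Pax6 (0.40), C1ql3 (0.71), Sema3a (0.83), Pcp2 (0.88), Sesn3 (-0.90) and Otub1 (-0.96) lost their call. Otub1 also lost its call when any 1 of the Tg and PAG arrays was left out, and Sesn3 without Tg replicate 2 or without PAG replicate 1. The difference of differences called 1368 genes higher and 954 lower with no fold threshold, 190 lower without the pontine nucleus, and 328 higher and 201 lower without the inferior colliculus, beside 211 and 112. Between the other hindbrain and midbrain regions 2199 and 2045 genes were called with no fold threshold, and 182 and 255 without the medial vestibular nucleus, beside 83 and 167. The cause of these shifts was not tested.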

Other observations

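Called genes outside the groups described in the report included neuronal surface molecules and a regulator of RNA. Higher in Tg were Cntn4, a contactin of developing axons, at 1.05 ± 0.18 (adjusted p = 9.46e-05; 0.29 at its other probe set), Prmt8, a brain arginine methyltransferase, at 1.05 ± 0.14 (adjusted p = 5.10e-07) and Coch, the cochlin gene, at 1.12 ± 0.24 (adjusted p = 0.00148). Higher in PAG were Lgals1, the galectin-1 gene, at -1.29 ± 0.16 (adjusted p = 1.46e-08), Ahnak2 at -1.23 ± 0.13 (adjusted p = 4.19e-10), Dmrta2, a transcription factor of the DMRT family, at -1.30 ± 0.14 (adjusted p = 9.01e-10), Cpeb1, which binds the tails of messenger RNA, at -1.09 ± 0.18 (adjusted p = 5.09e-05) and C1ql2, a relative of C1ql3, at -1.04 ± 0.16 (adjusted p = 9.85e-06). C1ql2 and C1ql3 thus lay on opposite sides, C1ql2 at 8.87 and 8.89 in Tg and 9.72 and 10.12 in PAG and C1ql3 at 9.43 and 10.35 in Tg and 8.40 and 8.71 in PAG, and the call of C1ql3 was lost without Tg replicate 2 (0.88) and without either PAG array (1.19 and 1.49). Coch fell under 2-fold without Tg replicate 2 (0.92) and without PAG replicate 2 (0.99). Apart from Coch, which the rule for named genes covers together with C1ql3, these genes were chosen after their values were seen.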
